A study of Mus musculus with 12 samples.

Results

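The genes described here were 33 genes of DNA replication and S phase, given as a list of symbols with roles in copying the genome, with no threshold on a measured value. All 33 were found among the 22552 genes of the expression table, and none was listed at 0 in any column. They were grouped by role into 9 genes that license replication origins, 4 that activate the replicative helicase, 8 that copy DNA at the fork, 5 that supply deoxynucleotides, 3 that drive entry into S phase and 4 that rebuild chromatin behind the fork. Their levels were compared over 2 tissues and over knockouts of Lbr, the lamin B receptor of the inner nuclear membrane, and of Lmna, the gene of the A-type lamins of the nuclear lamina.

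Cells copy their genome once per division in a fixed order of steps. Origin recognition factors load the MCM helicase in G1, kinases at the G1 to S transition convert it into a moving helicase, and polymerases, clamp and clamp loader then copy both strands while ribonucleotide reductase and its partners make the precursors. Most of these genes are targets of the E2F factors, which are held back by the retinoblastoma protein in resting cells. Differentiated muscle fibres have left the cell cycle for good, whereas myoblasts, their dividing precursors, still cycle.

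RNA was sequenced from Lbr-knockout, Lmna-knockout and wild-type striated muscle, with 2 samples in each group, and from cells labelled as myoblasts, with 2 Lbr-knockout, 1 Lbr-litter wild-type, 2 Lmna-knockout and 1 Lmna-litter wild-type samples. All mice were C57Bl/6; knockouts and their wild types were littermates from crosses of heterozygotes, without a further treatment, and the labels give neither the age, nor the muscle, nor the nature of the knockout alleles. The table holds 1 column per group, as FPKM, a fragment number divided by transcript length and by library depth, so that the spread between animals of a group cannot be seen. The muscle libraries were made with the NuGEN complete RNA-Seq protocol and the myoblast libraries with the NuGEN Ovation RNA-Seq kit, so tissue and kit cannot be told apart.

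Lbr was at 1.87 FPKM in Lbr-knockout and 11.3 FPKM in Lmna-knockout muscle, against 11.8 FPKM in wild-type muscle, and at 7.71 FPKM in Lbr-knockout myoblasts against 16.1 FPKM in their wild type, and 13.5 FPKM in Lmna-knockout myoblasts against 14.7 FPKM in theirs. Lmna was at 62.8 FPKM in Lbr-knockout and 22.6 FPKM in Lmna-knockout muscle, against 59.5 FPKM in wild-type muscle, and at 106 FPKM in Lbr-knockout myoblasts against 114 FPKM in their wild type, and 18.5 FPKM in Lmna-knockout myoblasts against 147 FPKM in theirs. In each tissue both targeted genes were lowest in their own knockout, and neither was at 0 there. Ckm, the muscle creatine kinase, lay between 4488 and 5120 FPKM in muscle. Of 10 muscle progenitor markers, 8 could be tested in a limma fit of the tissue difference; 6 were called higher in muscle, among them Myf5 and Cdh15, and 2 lower, Vcam1 with 3.27 to 4.32 FPKM in muscle against 17.1 to 28.7 FPKM in myoblasts and Sdc4 with 8.51 to 10.4 FPKM in muscle against 42.8 to 59.6 FPKM in myoblasts. Pax7 had 1.28 to 2.10 FPKM in muscle against 0.152 to 0.273 FPKM in myoblasts. The 10 progenitor markers summed to 62.6 to 66.3 FPKM in muscle and 68.6 to 101 FPKM in myoblasts, none at 0. Their median went the other way, with 3.51 to 4.10 FPKM in muscle and 0.520 to 1.14 FPKM in myoblasts. A list of 13 macrophage genes summed to 142 to 203 FPKM in muscle and 442 to 1654 FPKM in myoblasts. A list of 8 fibroblast genes summed to 1719 to 1838 FPKM in muscle and 2176 to 2705 FPKM in myoblasts. What part other cells had in the myoblast values was not tested. From the FPKM step of a single fragment, 1 FPKM of a transcript of 2 kb was estimated to stand for about 3.72 to 8.15 fragments in the muscle columns and 23.5 to 34.0 in the myoblast columns.

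The first comparison asked how the replication genes differ between the tissue and the cultured cells. All 33 genes were lower in muscle, and in each of the 33 every muscle column lay below every myoblast column, an order shown by 52.0% of all genes. In a limma fit with terms for tissue, Lbr knockout and Lmna knockout, 33 of 33 passed an adjusted p of 0.05 as lower in muscle. Of the 12001 genes tested, 52.3% passed as lower and 26.6% as higher. The standard errors of this fit measure how the group columns depart from the sum of its terms, with a variance prior drawn from all genes. They do not measure the spread between animals of a group. The size set the list further from the background than the direction did: 33 of 33 were at least 2-fold lower (35.1% of all genes) and 24 at least 4-fold lower (12.8% of all genes) on the scale of log2(FPKM + 1). The median difference of the list, muscle minus myoblasts, was -2.47 on the log2 scale, against a median of -0.50 over all genes. The pseudocount makes these differences smaller than ratios of FPKM. With columns centred on their medians, which moves the median of all genes to 0.02, the list had a median of -1.94. Still 33 of 33 were called lower, 28 at least 2-fold and 15 at least 4-fold. Over all 12001 genes, 2520 were called at least 2-fold lower and 816 at least 4-fold lower. The calls over all genes turned from 3196 higher and 6276 lower to 4645 higher and 4372 lower. In such bulk RNA, fewer cycling cells and less RNA per cell cannot be told apart.

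**Figure D1:**
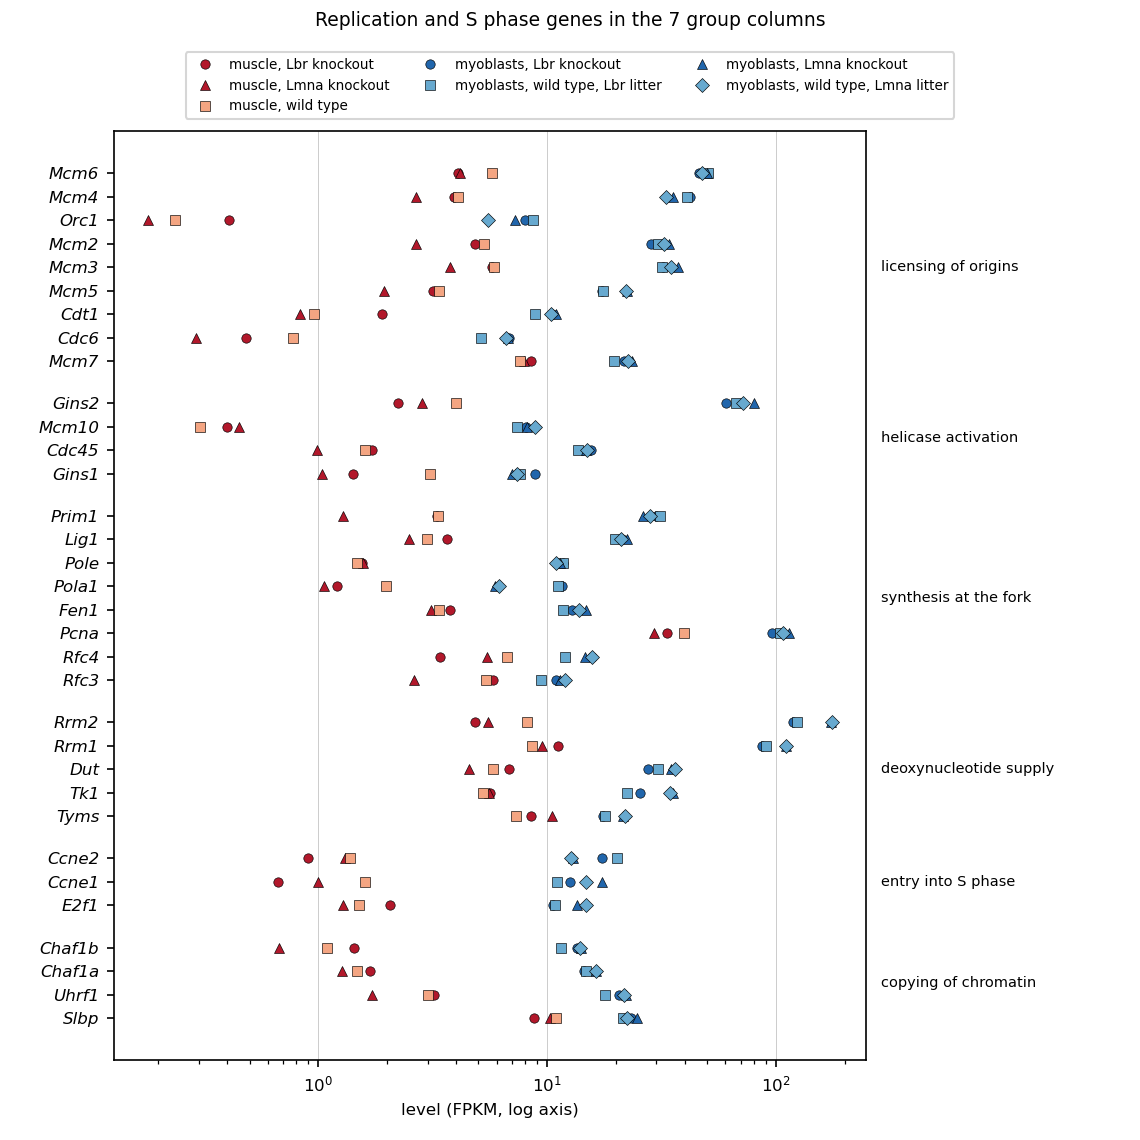
Level of each of the 33 genes in the 7 group columns, in FPKM on a log axis, grouped by role; red and orange symbols are muscle, blue symbols are myoblasts, each symbol is 1 column and there are no error bars. Every muscle symbol lies left of every myoblast symbol of its gene.

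Origins are licensed by Orc1, a subunit of the origin recognition complex, together with Cdc6 and Cdt1, the loading factors. Orc1 was very low in muscle, at 0.408 FPKM in Lbr-knockout and 0.180 FPKM in Lmna-knockout muscle, against 0.236 FPKM in wild-type muscle, and at 5.49 to 8.66 FPKM in myoblasts. Cdc6 had 0.292 to 0.778 FPKM in muscle against 5.11 to 6.81 FPKM in myoblasts, and Cdt1 had 0.832 to 1.90 FPKM in muscle against 8.86 to 10.9 FPKM in myoblasts. The 6 subunits of the MCM helicase, Mcm2 to Mcm7, form a ring of equal parts. Their levels spread over 17.4 to 50.6 FPKM in the myoblast columns, against 1.94 to 8.46 FPKM in the muscle columns. Their differences were not equal, although all passed the test: muscle minus myoblasts was -3.11 (SE 0.14, limma adjusted p = 5.55e-07) for Mcm6 and -3.09 for Mcm4, but -1.36 (SE 0.13, limma adjusted p = 2.82e-05) for Mcm7. Mcm7 was the most abundant subunit in all 3 muscle columns, with 8.46 FPKM in Lbr-knockout and 7.88 FPKM in Lmna-knockout muscle, against 7.63 FPKM in wild-type muscle, and among the lower ones in myoblasts, at 19.7 to 23.5 FPKM.

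Helicase activation joins Cdc45 and the GINS complex to the MCM ring, with Mcm10 as a further activator. Gins2 was the second most changed gene of the list, with 2.22 to 3.97 FPKM in muscle against 60.5 to 79.9 FPKM in myoblasts, a difference of -4.12 (SE 0.16, limma adjusted p = 2.45e-07). Gins1, another subunit of the same complex, had 1.03 to 3.08 FPKM in muscle against 6.99 to 8.86 FPKM in myoblasts and a difference of -1.62. The ratio of Gins2 to Gins1 was accordingly 1.29 to 2.73 in muscle and 6.83 to 11.4 in myoblasts. Mcm10 had 0.303 to 0.448 FPKM in muscle against 7.38 to 8.83 FPKM in myoblasts, and Cdc45 had 0.984 to 1.71 FPKM in muscle against 13.6 to 15.5 FPKM in myoblasts.

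At the fork, Pola1 and Prim1 are the catalytic subunit of DNA polymerase alpha and its primase, and Pole is the catalytic subunit of the leading strand polymerase. Prim1 had 1.28 to 3.33 FPKM in muscle against 26.2 to 31.2 FPKM in myoblasts, with a difference of -3.06 (SE 0.18, limma adjusted p = 1.58e-06). Pole had 1.48 to 1.57 FPKM in muscle against 10.96 to 11.8 FPKM in myoblasts, and Pola1 had 1.06 to 1.98 FPKM in muscle against 5.91 to 11.6 FPKM in myoblasts. All 3 fell in muscle, Prim1 by the largest step of the fork genes. Pcna, the sliding clamp, was the most abundant member in all 3 muscle columns, at 29.1 to 39.5 FPKM against 96.1 to 114 FPKM in myoblasts, a difference of -1.58 (SE 0.15, limma adjusted p = 2.61e-05). Rfc3 and Rfc4 belong to the clamp loader and were among the least changed members, with -1.12 and -1.34. Rfc3 had 2.63 to 5.76 FPKM in muscle against 9.42 to 11.9 FPKM in myoblasts, and it carried the largest adjusted p of the list, 0.00114 in limma. Fen1 and Lig1, which trim and join Okazaki fragments, differed by -1.70 and -2.47.

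Deoxynucleotide supply held both ends of the list. Rrm2, the small subunit of ribonucleotide reductase that is made in S phase, was at 4.85 FPKM in Lbr-knockout and 5.53 FPKM in Lmna-knockout muscle, against 8.14 FPKM in wild-type muscle, and at 118 to 176 FPKM in myoblasts; its difference of -4.33 (SE 0.19, limma adjusted p = 4.82e-07) was the largest of the 33. Rrm1, the large subunit, had 8.59 to 11.1 FPKM in muscle against 86.8 to 110.5 FPKM in myoblasts and a difference of -3.24. The ratio of Rrm2 to Rrm1 was 0.436 to 0.947 in muscle and 1.36 to 1.59 in myoblasts. Rrm2b, the small subunit that serves resting cells, is no member of the list; it had 3.76 to 4.98 FPKM in muscle against 2.62 to 3.91 FPKM in myoblasts and did not pass the test, with a difference of 0.27 (SE 0.16, limma adjusted p = 0.158), although it was called higher with centred columns. The ratio of Rrm2 to Rrm2b therefore was 1.11 to 2.16 in muscle, against 30.2 to 67.1 in myoblasts. Tyms, which makes thymidylate, had the smallest difference of all, with 7.33 to 10.5 FPKM in muscle against 17.5 to 21.9 FPKM in myoblasts and -1.11 (SE 0.15, limma adjusted p = 1.81e-04). Tk1, the thymidine kinase of dividing cells, had 5.23 to 5.59 FPKM in muscle against 22.3 to 35.4 FPKM in myoblasts, and Dut, the dUTPase that keeps uracil out of DNA, had 4.56 to 6.80 FPKM in muscle against 27.4 to 36.1 FPKM in myoblasts.

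Entry into S phase was represented by the activator E2f1 and the cyclins Ccne1 and Ccne2, which activate Cdk2. E2f1 had 1.28 to 2.05 FPKM in muscle against 10.5 to 14.7 FPKM in myoblasts, Ccne1 had 0.664 to 1.59 FPKM in muscle against 11.03 to 17.4 FPKM in myoblasts and Ccne2 had 0.904 to 1.38 FPKM in muscle against 12.7 to 20.1 FPKM in myoblasts, with differences of -2.36, -2.83 and -2.89. Chaf1a and Chaf1b, subunits of the chromatin assembly factor that loads new histones, differed by -2.73 and -2.81, and Uhrf1, which directs DNA methylation to new strands, by -2.58. Slbp, which binds the stem-loop of histone mRNAs, stood apart among these genes with 8.76 to 10.97 FPKM in muscle against 21.4 to 24.7 FPKM in myoblasts and a difference of -1.12.

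Other genes of the same processes moved less evenly. Of 40 further origin and fork genes, 36 fell in muscle and 0 rose, with a median of -1.21; Dbf4, the activator of the origin-firing kinase, had a difference of -3.27 and Gmnn, the inhibitor of Cdt1, of -2.07. Pold4, Rfc2, Rnaseh2a and Orc4 did not pass, Pold4 with 0.39 (SE 0.17, limma adjusted p = 0.0669); with centred columns 29 fell and Pold4 was called higher. Of 17 further genes of nucleotide supply, 13 fell and 3 rose: Shmt1, a serine hydroxymethyltransferase, by 1.36, Nme2, a nucleoside diphosphate kinase, by 1.06, and Impdh2, of guanine nucleotide synthesis, by 0.75. Of 20 regulators of the G1 to S transition, 15 fell, led by the D-type cyclin Ccnd2 with -4.56, and 1 rose, the retinoblastoma gene Rb1, by 0.40 (SE 0.16, limma adjusted p = 0.0488). Among 6 inhibitors of cyclin-dependent kinases that could be tested, Cdkn1c (p57) rose by 4.58 (SE 0.33, limma adjusted p = 4.65e-06) and 5 fell, with Cdkn1a (p21) at -4.95; with columns centred on their medians 2 of the 5 were still called. Genes of G2 and mitosis fell in 21 of 21 cases, with a median of -3.48 and Ube2c at -5.41. These lists were chosen with earlier results of the same data known, and no difference between lists was tested.

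**Figure D2:**
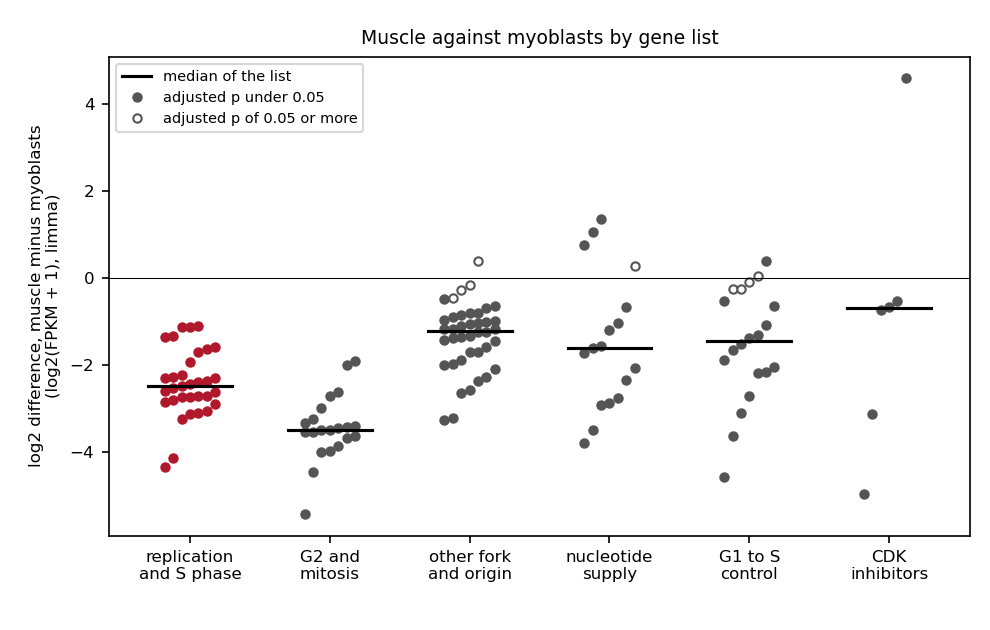
Log2 difference of log2(FPKM + 1), muscle minus myoblasts, from the limma fit over 7 columns, for each gene of 6 lists; filled points have an adjusted p under 0.05, open points do not, and bars are medians. The 33 replication and S phase genes lie between -4.33 and -1.11, with a median of -2.47, and the 21 genes of G2 and mitosis have a median of -3.48.

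Since the 33 genes moved together between the tissues, their promoters were searched for the letters that E2F factors bind. The RefSeq windows (GRCm38.p6, 250 bases before to 50 after the start) held 28 of the 33 genes in 33 windows. An 8-letter E2F word, TTTCCCGC, TTTCGCGC, TTTGCCGC or TTTGGCGC on either strand, was found in 11 of the 33 windows (33.3%), against 2.26% of all 32851 windows. The shorter core TTNNCGC, which contains these words, was in 75.8% of the members' windows and in 20.2% of all windows. CCAAT, the letters read by the factor NF-Y, was in 57.6% of the members' windows and in 37.4% of all. Other lists held the words too: 12 of 39 windows of the other origin and fork genes (30.8%) and 8 of 21 of the regulators of the G1 to S transition (38.1%) held an 8-letter word, against 0 of 20 for the other nucleotide supply genes. In the windows of the G2 and mitosis genes, 1 of 17 held an 8-letter word and 15 of 17 (88.2%) held CCAAT. The words are rich in G and C and overlap one another, the windows were not matched for base composition, and a match is not a binding site.

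The following 120-base stretches show how the words lie upstream of 6 members: Mcm6 (GRCm38.p6, chr1:128359706-128359825, minus strand), where a pair of overlapping words and a further word precede the start; Orc1 (chr4:108579334-108579453, plus strand), with a word 27 bases before it; Cdc6 (chr11:98907971-98908090, plus strand) and Pola1 (chrX:93632216-93632335, minus strand), each with a word 138 bases before it; Mcm5 (chr8:75109329-75109448, plus strand), with overlapping words in opposite directions; and Rrm2 (chr12:24708134-24708253, plus strand), the most changed member, whose window held none of the 4 words. Capitals mark the 8-letter words, and each line reads 5′ to 3′ along its gene.
Mcm6: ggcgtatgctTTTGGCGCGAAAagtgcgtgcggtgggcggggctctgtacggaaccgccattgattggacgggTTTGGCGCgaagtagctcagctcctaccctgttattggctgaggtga
Orc1: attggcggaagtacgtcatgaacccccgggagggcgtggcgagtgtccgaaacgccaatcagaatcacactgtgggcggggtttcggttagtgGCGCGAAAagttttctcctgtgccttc
Cdc6: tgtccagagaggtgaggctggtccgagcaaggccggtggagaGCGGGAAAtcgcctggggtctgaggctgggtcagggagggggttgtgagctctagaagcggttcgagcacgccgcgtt
Pola1: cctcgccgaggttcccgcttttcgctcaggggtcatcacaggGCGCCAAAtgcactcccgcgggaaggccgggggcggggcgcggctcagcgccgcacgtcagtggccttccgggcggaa
Mcm5: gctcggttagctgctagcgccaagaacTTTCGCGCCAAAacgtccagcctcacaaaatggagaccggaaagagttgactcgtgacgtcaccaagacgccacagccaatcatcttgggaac
Rrm2: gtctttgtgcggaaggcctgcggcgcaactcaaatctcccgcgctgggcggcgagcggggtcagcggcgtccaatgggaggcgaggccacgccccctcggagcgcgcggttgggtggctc

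The next comparison set each knockout myoblast column against the wild type of its own litter. In neither did any of the 33 genes reach 2-fold. Of all genes, 2.48% were at least 2-fold higher and 0.122% lower in Lbr-knockout myoblasts. In Lmna-knockout myoblasts 0.602% were higher and 0.602% lower. Shares this small leave few or no such genes to be found among 33, so the count does not set the members apart. The members' median difference was 0.05 for Lbr, with 15 of 33 below 0 (39.1% of all genes), and 0.03 for Lmna, with 12 of 33 below 0 (41.9% of all genes). Both medians became -0.01 when columns were centred on their medians. The range ran from -0.21 for Ccne2 to 0.36 for Rfc4 in Lbr-knockout myoblasts, and from -0.11 for E2f1 to 0.34 for Orc1 in Lmna-knockout myoblasts. Mcm2 was at 28.3 FPKM in Lbr-knockout myoblasts against 30.4 FPKM in their wild type, and 33.9 FPKM in Lmna-knockout myoblasts against 32.3 FPKM in theirs. Pcna was at 96.1 FPKM in Lbr-knockout myoblasts against 104 FPKM in their wild type, and 114 FPKM in Lmna-knockout myoblasts against 107 FPKM in theirs. In both genes the knockout column was the lower of its pair for Lbr and the higher for Lmna, while 18 of 33 members were above their wild type for Lbr.

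The largest differences were small in FPKM. Rfc4 was at 15.7 FPKM in Lbr-knockout myoblasts against 12.0 FPKM in their wild type, and 14.6 FPKM in Lmna-knockout myoblasts against 15.8 FPKM in theirs, so that the Lbr-litter wild type was the low column among 4. Cdc6 was likewise lowest in that wild type, at 6.81 FPKM in Lbr-knockout myoblasts against 5.11 FPKM in their wild type, and 6.71 FPKM in Lmna-knockout myoblasts against 6.63 FPKM in theirs. Orc1 was lowest in the other wild type, at 8.03 FPKM in Lbr-knockout myoblasts against 8.66 FPKM in their wild type, and 7.21 FPKM in Lmna-knockout myoblasts against 5.49 FPKM in theirs. In these 3 genes the lowest of the 4 columns was a wild type of 1 sample. For Orc1 both Lbr-litter columns also lay above both Lmna-litter columns. All 9 licensing genes were above their wild type in Lmna-knockout myoblasts, by 0.01 to 0.34 (7 of 9 with centred columns). Of all genes, 6655 of 11462 were above it. The median of the 9 was 0.07, against 0.04 over all genes, and fell to 0.03 with centred columns. In Lbr-knockout myoblasts 5 of the 9 were above their wild type, as were 6977 of 11463 genes.

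Other lists in the same columns showed larger values. In Lbr-knockout myoblasts the genes of muscle differentiation were higher with a median of 1.62 (11 of 11 at least 2-fold) and the macrophage genes with a median of 1.81 (13 of 13). In Lmna-knockout myoblasts the muscle differentiation genes had a median of -1.72 (10 of 11 at least 2-fold lower) and the macrophage genes of -0.28. The G2 and mitosis genes had medians of -0.05 and -0.18, the second with 20 of 21 genes below 0. The 40 other origin and fork genes had medians of 0.05 and -0.01, and of -0.01 and -0.05 with centred columns. No difference between lists was tested.

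**Figure D3:**
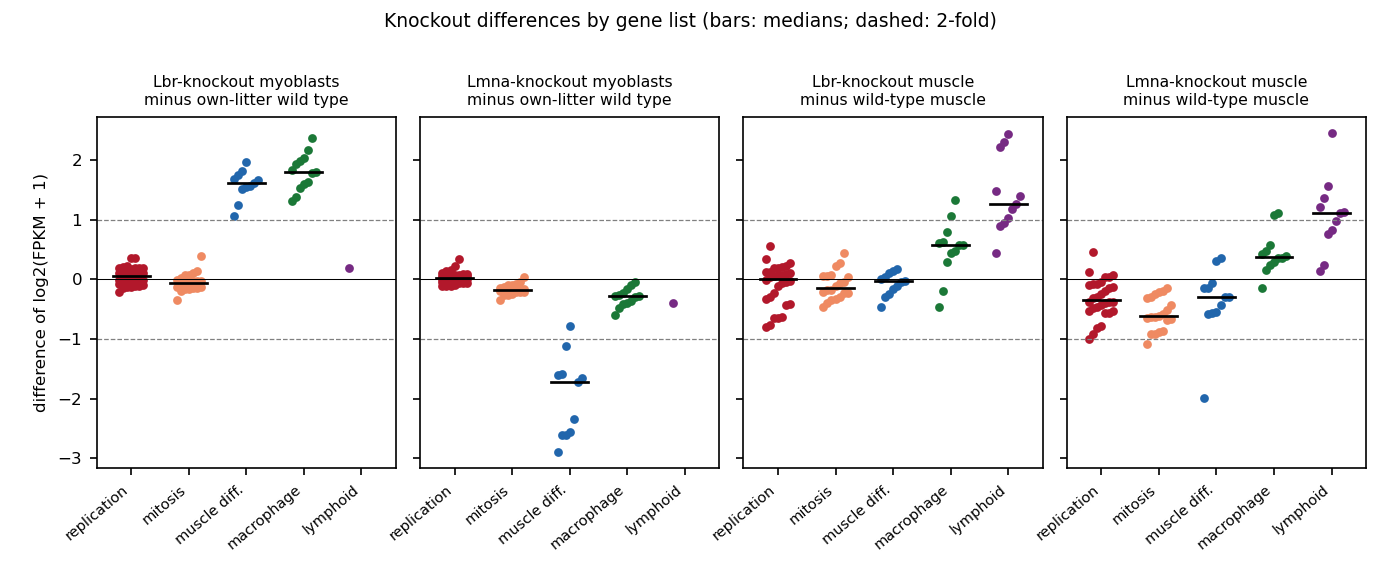
Difference of log2(FPKM + 1), knockout minus wild type, for genes that averaged 1 FPKM or more in the tissue, in 5 gene lists and the 4 knockout comparisons; each point is a gene, bars are medians and dashed lines mark 2-fold. The replication and S phase genes centre on 0.05, 0.03 and 0.01 in the first 3 panels and on -0.35 in Lmna-knockout muscle.

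Both wild-type myoblast columns were also taken as a group in limma, where the residual spread is that between 2 animals of different litters. The fit has 1 residual degree of freedom against 25.8 of the variance prior, so its standard errors come mostly from all genes. In it 0 of 33 members were called for either knockout and 0 had an unadjusted p under 0.05. Of the 11447 genes tested, 32 (0.28%) were called higher and 5 (0.0437%) lower for Lbr, and 24 (0.21%) higher and 23 (0.201%) lower for Lmna. For Mcm2 this fit gave differences of -0.14 for Lbr and 0.11 for Lmna, with a standard error of 0.33 for each. Both knockout columns were above both wild types in 4 members, Cdc6, Cdt1, Lig1 and Slbp (12.1%, against 11.0% of all genes), and below both in 0 (5.22% of all genes). In the fit over all 7 columns, 0 members were called for the average effect of either knockout. There, 0 genes were called for Lbr (254 genes but 0 members at an unadjusted p under 0.05) and 1 gene (0.00833%) was called higher for Lmna (447 genes and 1 member at an unadjusted p under 0.05). That member was Prim1, with a log2 difference of -0.51 (SE 0.21, limma adjusted p = 0.965).

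In the members, as in all genes, the myoblast columns split by litter more often than both knockouts lay on the same side of both wild types. An effect of a single knockout, or effects in opposite directions, could not give the second order. Each litter also had its own targeted gene, so the weight of litter against genotype was not tested. The difference Lbr litter minus Lmna litter had the same sign in the wild-type pair and in the knockout pair in 29 of the 33 members (87.9%, against 78.1% of all genes). In 19 members both Lbr-litter columns lay below both Lmna-litter columns (57.6%, against 39.3% of all genes), and in 7 they lay above (21.2%, against 29.4% of all genes). The 7 were Orc1, Mcm4, Gins1, Pola1, Prim1, Pole and Ccne2. Between the wild types the members' median was -0.19, against -0.07 over all genes, 25 of 33 lay below 0 (57.5% of all genes), and no member reached 2-fold (2.03% of all genes were at least 2-fold lower and 0.687% higher).

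Pola1 had the widest gap, with 11.6 and 11.1 FPKM in Lbr-knockout and wild-type myoblasts of the Lbr litter, against 5.91 and 6.13 FPKM in those of the Lmna litter. The difference was 0.86 between the knockouts and 0.77 between the wild types. Its partner Prim1 moved little, with 29.8 and 31.2 FPKM in Lbr-knockout and wild-type myoblasts of the Lbr litter, against 26.2 and 28.1 FPKM in those of the Lmna litter. The cyclins of S phase entry went opposite ways: Ccne2 had 17.3 and 20.1 FPKM in Lbr-knockout and wild-type myoblasts of the Lbr litter, against 12.9 and 12.7 FPKM in those of the Lmna litter, whereas Ccne1 had 12.6 and 11.03 FPKM in Lbr-knockout and wild-type myoblasts of the Lbr litter, against 17.4 and 14.7 FPKM in those of the Lmna litter. In both, the litters did not overlap.

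All 5 genes of deoxynucleotide supply were lower in the Lbr litter. Rrm2 had 118 and 124 FPKM in Lbr-knockout and wild-type myoblasts of the Lbr litter, against 173 and 176 FPKM in those of the Lmna litter, and Tk1 had 25.4 and 22.3 FPKM in Lbr-knockout and wild-type myoblasts of the Lbr litter, against 35.4 and 34.2 FPKM in those of the Lmna litter. Rrm1 had 86.8 and 89.8 FPKM in Lbr-knockout and wild-type myoblasts of the Lbr litter, against 110.4 and 110.5 FPKM in those of the Lmna litter. All were ordered alike, with the litters apart. E2f1 had 10.5 and 10.8 FPKM in Lbr-knockout and wild-type myoblasts of the Lbr litter, against 13.5 and 14.7 FPKM in those of the Lmna litter. Summed over the 5 supply genes the columns held 275 and 284 FPKM in Lbr-knockout and wild-type myoblasts of the Lbr litter, against 375 and 378 FPKM in those of the Lmna litter. The other nucleotide supply genes showed the same side in 12 of 17, and the other origin and fork genes lay on the opposite side more often, with 20 of 40 above and 13 of 40 below in the Lbr litter.

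Across the members the litter difference in knockouts and that in wild types correlated with Pearson's r = 0.80 and Spearman's rho = 0.63; over all 11447 genes the values were 0.52 and 0.65. The points share their libraries, and genes are not independent. The mean litter difference ran against the GC content of the longest protein-coding transcript, with r = -0.59 and rho = -0.48 over the members and r = -0.57 and rho = -0.59 over the 10096 genes with a value. Macrophage genes differed between the wild types too, with a median of -1.83, and muscle differentiation genes with -0.81. The part of base composition or of other cells in the litter difference was not tested.

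**Figure D4:**
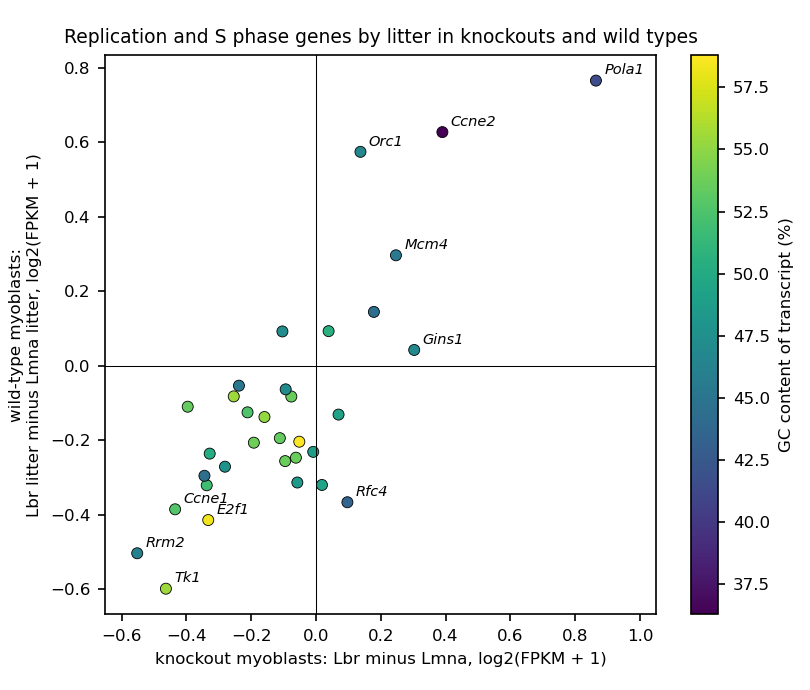
Each point is a member; the horizontal axis is the log2 difference between the knockout myoblast columns, Lbr minus Lmna, the vertical axis that between the wild types of the same litters, and colour is transcript GC content in percent. In 29 of 33 members (87.9%, against 78.1% of all genes) both differences have the same sign, with Pola1 at 0.86 and 0.77.

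In muscle both knockouts were set against the same wild-type column, so their differences are not independent of each other. Of the 33 members, 30 averaged 1 FPKM or more there, and Orc1, Cdc6 and Mcm10 did not. In Lbr-knockout muscle 0 of 30 reached 2-fold (0.265% of all genes were at least 2-fold lower and 1.3% higher). The median was 0.01, against 0.10 over all genes, and -0.10 with centred columns; 15 of 30 lay below 0 (50.0%, against 33.4% of all genes). The range ran from -0.80 for Rfc4 to 0.57 for Cdt1.

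In Lmna-knockout muscle the members were lower as a body, though by less than 2-fold. Of 30, 25 lay below 0 (83.3%, against 34.5% of all genes), with a median of -0.35 where all genes had a median of 0.13. With centred columns the median was -0.49, against -0.01 over all genes, and 29 of 30 lay below 0. The share of all genes below 0 with centred columns is not given here. Gins1 alone of the members was at least 2-fold lower, at -1.00 (0.762% of all genes were at least 2-fold lower and 1.93% higher). Muscle differentiation genes were below wild type in 10 of 12 cases in the same column (83.3%), with a median of -0.29 and Actc1 at -1.98; with quantile normalization 7 of 12 were, with a median of -0.12. The summed level of the 33 members was 150 FPKM in Lbr-knockout and 130 FPKM in Lmna-knockout muscle, against 164 FPKM in wild-type muscle. The Lmna-knockout column was the lowest of the 3 in 18 of 30 members (60.0%, against 27.3% of all genes), the Lbr-knockout column in 7 (23.3%, against 21.1%) and the wild type in 5 (16.7%, against 51.6%).

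By role, the licensing genes had a median of -0.47 in Lmna-knockout muscle, the fork genes of -0.34 and the chromatin genes of -0.22, while the 5 supply genes had a median of 0.07, or -0.07 with centred columns. Mcm2 was at 4.85 FPKM in Lbr-knockout and 2.66 FPKM in Lmna-knockout muscle, against 5.31 FPKM in wild-type muscle. Mcm5 was at 3.18 FPKM in Lbr-knockout and 1.94 FPKM in Lmna-knockout muscle, against 3.36 FPKM in wild-type muscle. In both, as in Mcm3 and Mcm4, the Lmna-knockout column stood below a pair of nearly equal columns. Mcm6 and Mcm7 did not share this order, with 4.06 FPKM in Lbr-knockout and 4.17 FPKM in Lmna-knockout muscle, against 5.75 FPKM in wild-type muscle for Mcm6, and Mcm7 lowest in wild type.

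Prim1 showed the same order as Mcm2, with 3.28 FPKM in Lbr-knockout and 1.28 FPKM in Lmna-knockout muscle, against 3.33 FPKM in wild-type muscle, a difference of -0.92 for Lmna and -0.01 for Lbr. Rfc3 was at 5.76 FPKM in Lbr-knockout and 2.63 FPKM in Lmna-knockout muscle, against 5.37 FPKM in wild-type muscle, or -0.81 and 0.09 in the same order. Its clamp-loader partner Rfc4 was instead lowest in the Lbr knockout, at 3.41 FPKM in Lbr-knockout and 5.43 FPKM in Lmna-knockout muscle, against 6.65 FPKM in wild-type muscle. The clamp-loader genes thus differed in which knockout column was the low one. Uhrf1 followed Rfc3, with 3.21 FPKM in Lbr-knockout and 1.72 FPKM in Lmna-knockout muscle, against 3.001 FPKM in wild-type muscle.

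Other members were below wild type in both knockouts. Gins1 was at 1.41 FPKM in Lbr-knockout and 1.03 FPKM in Lmna-knockout muscle, against 3.08 FPKM in wild-type muscle, and Gins2 at 2.22 FPKM in Lbr-knockout and 2.82 FPKM in Lmna-knockout muscle, against 3.97 FPKM in wild-type muscle. Pola1 was at 1.21 FPKM in Lbr-knockout and 1.06 FPKM in Lmna-knockout muscle, against 1.98 FPKM in wild-type muscle. Both knockout columns were below the wild type in 15 of 30 members (50.0%, against 19.4% of all genes). Tyms went the other way, with 8.50 FPKM in Lbr-knockout and 10.5 FPKM in Lmna-knockout muscle, against 7.33 FPKM in wild-type muscle, a difference of 0.46 for Lmna, the highest of the members.

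These muscle values rest on few fragments. By the estimate above, Gins1 stood for about 4.97 fragments in Lbr-knockout and 2.09 in Lmna-knockout muscle, against 13.6 in wild-type muscle, and Prim1 for about 16.8 and 3.78, against 21.5. Mcm2, at about 52.9 and 16.7 against 72.9 fragments, was better covered. Among the 10 members that averaged 5 FPKM or more, the median for Lmna was -0.17, against 0.10 over all genes with that filter, and 6 of 10 lay below 0. The share of all genes below 0 with that filter is not given here.

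The G2 and mitosis genes were below wild type in 20 of 20 cases in Lmna-knockout muscle, with a median of -0.62, and had a median of -0.14 in Lbr-knockout muscle. The other origin and fork genes were nearer to 0, with a median of -0.01 for Lmna and 0.04 for Lbr, or -0.15 and -0.08 with centred columns. Cdkn1a, the p53-regulated inhibitor of cyclin-dependent kinases, was at 22.1 FPKM in Lmna-knockout muscle, against 4.33 FPKM in wild-type muscle, a difference of 2.12. In Lbr-knockout muscle it was at 7.76 FPKM. Of the 5 inhibitors compared in Lmna-knockout muscle, Cdkn1a alone was at least 2-fold higher, and 2 were below wild type. In Lbr-knockout muscle 4 of 5 were below wild type. Lymphoid genes were above wild type in 11 of 11 cases for either knockout, with medians of 1.26 for Lbr and 1.11 for Lmna, and their 12 genes summed to 70.5 and 47.0 FPKM in Lbr-knockout and Lmna-knockout muscle, against 15.6 FPKM in wild-type muscle, with none of the 12 listed at 0 in muscle. The 13 macrophage genes summed to 203 and 188 FPKM in the knockouts, against 142 FPKM. The part of these cells in the members' levels was not tested.

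**Figure D5:**
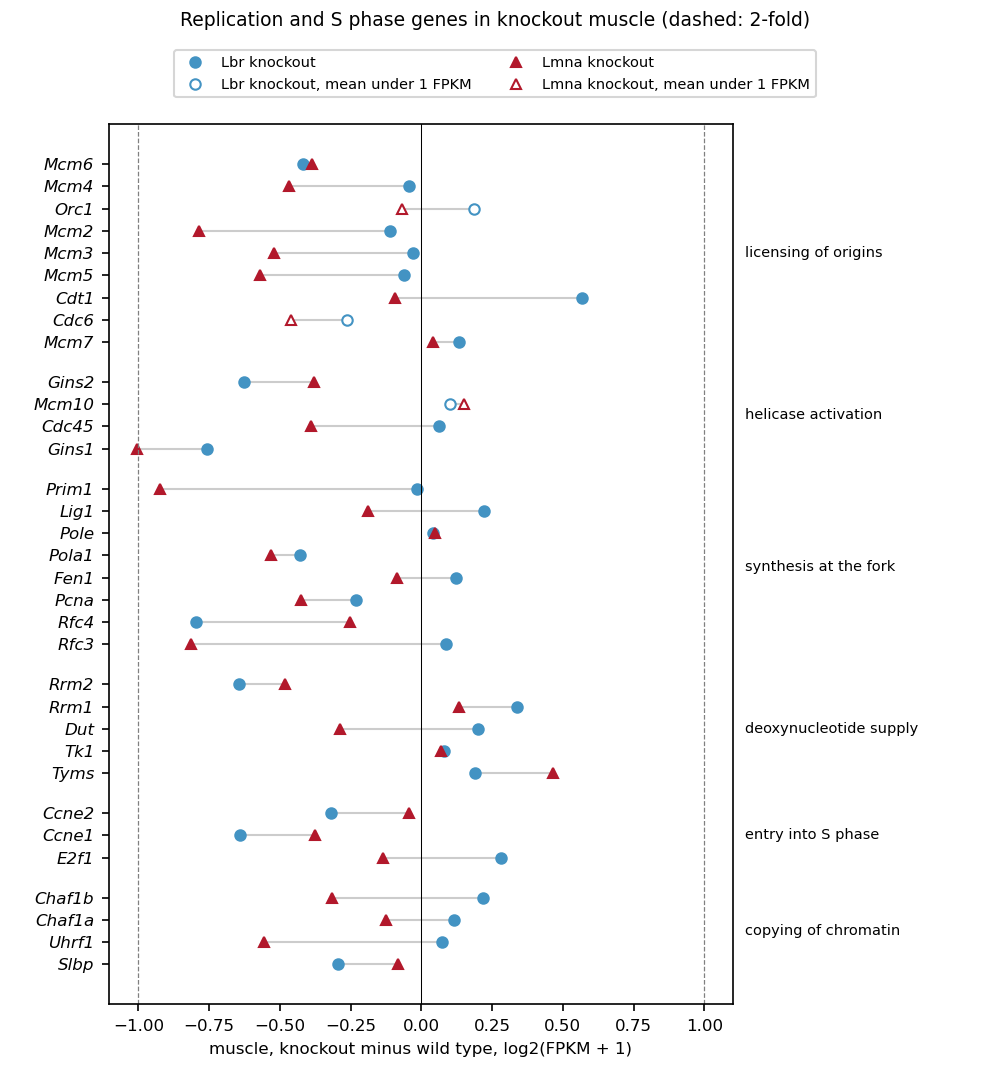
Difference of log2(FPKM + 1), knockout muscle minus wild-type muscle, for each member by role; circles are Lbr knockout, triangles Lmna knockout, open symbols have a mean under 1 FPKM in muscle, dashed lines mark 2-fold and there are no error bars. Most triangles lie left of 0, with Gins1 at -1.00 and Tyms at 0.46, while circles fall on both sides.

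The knockout effects in muscle and in myoblasts were compared in a fit with tissue by genotype terms, chosen after the data had been seen. Its residual spread again comes from the wild-type myoblasts alone, with 1 residual degree of freedom against 8.42 of the variance prior. For Lmna, muscle minus myoblasts had a median of -0.35 over the members, against 0.08 over all genes, with 29 of 33 below 0 (42.7% of all genes), and 0 members were called; 0 members and 430 genes had an unadjusted p under 0.05, and 2 of 12001 genes (0.0167%) were called lower. For Lbr the median was 0.02, against 0.05 over all genes, 0 members were called (2 genes, 0.0167%, were called lower), and 1 member had an unadjusted p under 0.05. This was Gins1, with a difference of -0.97 (SE 0.43) and a limma adjusted p of 1.00. The lower level of the members in Lmna-knockout muscle is therefore a description of a single column of 2 samples.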

How the data were processed

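Per the labels' protocols, total RNA was isolated with TRIZOL, purified with the RNeasy kit and made into libraries with NuGEN kits that differ between the tissues. The deposited values are FPKM, 1 value per gene and group, computed by the authors; the submitters' processing notes name mm9, and which aligner and quantification tool were used, and how 2 samples became 1 column, is not stated in the labels. Per the series' design text, knockouts and wild types of a litter were compared. Each of the 7 columns was assigned to its group from its name, and 0 columns had no match.

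Differences were taken on log2(FPKM + 1) for genes that averaged 1 FPKM or more in the tissue, or over all columns for the tissue comparison; genes listed at 0 in a compared column were left out. A single column per group allows no test of a knockout against its own wild type, so 2-fold took the place of a threshold there; in myoblasts a fit with both wild types as 1 group, with 1 residual degree of freedom, was an alternative. The planned tests over replicates could not be made. The tissue and average knockout effects came from limma 3.58.1 (R 4.3.3; 3 residual degrees of freedom, variance prior with trend, Benjamini-Hochberg adjustment over all genes, calls at an adjusted p under 0.05), tested on simulated data. No read counts were used. What 1 fragment is worth was read from the peak in the distribution of FPKM times length among 4179 genes with a single GENCODE M21 transcript; it is rough, and weakest in Lmna-knockout muscle. Transcript GC content came from GENCODE M21 and promoter sequences from RefSeq (GRCm38.p6). Table coordinates were not used, as the builds differ.

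The members and the gene lists were chosen with earlier results of these data known. All members are named, with up to 4 genes of each other list by size of difference, plus genes that stood apart, chosen after their values were seen. Alternatives varied the pseudocount, filter, scaling, treatment of 0, wild type used, variance prior and the columns included. Erythroid and fibroblast markers were also tabulated: over the knockout comparisons in muscle their medians ran from -0.38 to 0.22 and from -0.05 to 0.04. Muscle progenitor markers had medians of 0.00 for Lbr and -0.02 for Lmna in muscle.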

Additional observations from a re-analysis of the deposited data

How the results depend on the processing

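No paired analysis was possible by replicate number, because the table holds 1 column per group and the columns carry none, so single replicates could not be left out either; columns were left out in turn instead. Litter can pair the myoblast columns: with a litter term for them in the fit over all 7 columns, chosen after the data had been seen (2 residual degrees of freedom), 33 of 33 members were called lower in muscle and 0 for the average effect of either knockout. Of 225 recomputed values for 22 results, 209 stayed on their side of the threshold or within the spread between wild types, 16 moved and 0 were counted as reversed. A change of sign near 0 was not counted as a reversal. Over the settings the members' median ran from -0.07 to 0.05 in Lbr-knockout myoblasts and from -0.15 to 0.04 in Lbr-knockout muscle. In Lmna-knockout myoblasts it ran from -0.01 to 0.22. In the tissue comparison 33 of 33 members stayed lower in muscle under each alternative, or 30 of 30 with a mean of at least 5 FPKM. For Lmna-knockout myoblasts set against the other litter's wild type, the members' median was 0.22 where all genes had a median of 0.10. For Lbr-knockout muscle 2 of 30 members were at least 2-fold lower with a pseudocount of 0.1 FPKM. With quantile normalization 2 of 28 were, and the median was -0.15, against -0.004 over all genes. For Lmna-knockout muscle the count at least 2-fold lower was 1 of 30 as reported. It was 3 of 30 with a pseudocount of 0.1 FPKM and 0 of 30 with a pseudocount of 5 FPKM. It was 0 of 10 with a mean of at least 5 FPKM, 2 of 30 with centred columns and 4 of 28 with quantile normalization. The share of all genes under each setting is not given here, so these counts were not set against a background. The Lmna-knockout median was -0.15 with the pseudocount of 5 FPKM, -0.17 with the filter of 5 FPKM and -0.49 with centred columns. Over all genes the medians were 0.08, 0.10 and -0.01 in the same order. The cause of these moves was not tested. The muscle levels of Orc1, Cdc6 and Mcm10 stand for few fragments, and with 1 column per group no knockout value has an error between animals.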
